A study of Mus musculus with 9 samples.

Results

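The 9 genes described here encode the Aurora kinases A, B and C (Aurka, Aurkb, Aurkc), the Polo-like kinases Plk1 and Plk4, the Aurora A activator Tpx2, and the chromosomal passenger subunits Incenp, Birc5 and Cdca8. They were chosen by name, and all 9 were found among the 30153 genes of the deposited tables. The material was mouse eggs arrested at metaphase of meiosis II. The females were 4 weeks old, of mixed genetic background, and of the genotype Sycp3CreERT2/+; Rosa26nT-nG/+, so every group carried both alleles. Sycp3CreERT2 places a tamoxifen-inducible Cre at the Sycp3 locus, which is active in meiotic cells, and Rosa26nT-nG makes nuclear tdTomato until Cre switches it to nuclear GFP. Females received 5 IU of PMSG and, 48 h later, 5 IU of hCG, and 13 h after the latter the eggs were collected, cleared of cumulus with hyaluronidase and picked by hand under fluorescence. The 3 groups were GFP High, GFP Low and RFP, with 3 libraries each, and a library was a pool of 15 to 16 eggs in GFP High, 49 to 57 in the GFP Low pools and 87 to 100 in RFP. Pool size therefore went with the colour of the eggs, and the effects of pool size and colour on a value cannot be told apart.

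Aurora kinases, Polo-like kinases and their partners build the meiotic spindle and control how chromosomes attach to it. Aurora A acts at spindle poles and on spindle microtubules, where TPX2 binds and activates it. Aurora B or its germ-cell relative Aurora C forms the chromosomal passenger complex with INCENP, survivin (Birc5) and borealin (Cdca8), which corrects faulty attachments at centromeres and later works at the central spindle. Mouse eggs lack centrioles and transcribe almost nothing after meiotic resumption, so their mRNA is a store whose use depends in part on lengthening of the poly(A) tail. The libraries were made from poly(A)-enriched RNA. A value is therefore the abundance of tailed transcripts in a pool, in which fewer eggs holding a transcript and less transcript per egg cannot be told apart.

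All 9 mRNAs were present in every library. By the authors' gene lengths, Incenp and Birc5 were the most abundant and Aurkc and Aurkb the least, in the same order in GFP High, GFP Low and RFP. No gene of the set passed the test between any of the 3 groups. The largest shift was in Aurkb, with a fitted ratio of 0.783 between GFP High and GFP Low. Among the 7 more abundant genes it was in Birc5, with a fitted ratio of 1.24 between GFP High and RFP. Neither passed after correction for multiple testing. The widest spread was in Aurkb and Aurkc among the GFP High libraries. Genes at their level also varied more, by the median, in GFP High than in GFP Low or RFP.

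Total counts ran from 19381677 to 27746256 per library. CPM is a read count scaled to the library total, adjusted by TMM factors. At the smallest total, before that adjustment, 1 CPM stood for 19.4 reads. The 10 oocyte markers summed to between 8713 and 10142 CPM, with none at 0 in any library. In GFP High versus GFP Low, 9 of the 10 had a positive log2 difference and the CPM ranges of 4 did not overlap, and in GFP High versus RFP 8 of 10 and 2, with 0 past the test in either comparison. Over all genes tested, 49.4% and 49.3% were positive and the ranges of 11.7% and 12.1% did not overlap, in the same order. Of 15 listed cumulus and granulosa markers, 5 to 12 were at 0 in a GFP High library, 3 to 6 in the GFP Low pools and 2 to 5 in RFP. Most of their sum was Nr5a2, at 100.8 to 157.2 CPM, and the other 14 summed to 2.07 to 39.5 CPM in GFP High, 2.34 to 41.7 in the GFP Low pools and 4.12 to 60.7 in RFP. The 4 listed markers of blood and oviduct epithelium summed to at most 3.46 CPM. Mki67 and Top2a, listed as markers of dividing somatic cells, summed to 519.6 to 638.0 CPM in GFP High, 637.8 to 711.6 in the GFP Low pools and 651.8 to 727.6 in RFP. The part of these markers in the results was not tested. The sources do not state that libraries came from separate animals, so the p-values measure the spread between these pools.

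In GRCm38, and as the tables list them, Aurka (ENSMUSG00000027496) lies at chr2:172356190-172370535 on the minus strand, Aurkb (ENSMUSG00000020897) at chr11:69045647-69051664 on the plus strand and Aurkc (ENSMUSG00000070837) at chr7:6995300-7003091 on the plus strand. Plk1 (ENSMUSG00000030867) is at chr7:122159439-122169873 and Plk4 (ENSMUSG00000025758) at chr3:40800019-40816883, both on the plus strand. Tpx2 (ENSMUSG00000027469) is at chr2:152847964-152895321 on the plus strand. Incenp (ENSMUSG00000024660) is at chr19:9872297-9899533 on the minus strand, Birc5 (ENSMUSG00000017716) at chr11:117849251-117855743 on the plus strand and Cdca8 (ENSMUSG00000028873) at chr4:124918465-124939311 on the minus strand. All 9 are annotated as protein-coding, and the values are sums over their exons.

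Sequence of the transcripts bears on some of these mRNAs in 2 ways, and it is shown for that reason before the values. The first concerns Aurkc, whose reads can be confused with those of a retrocopy. Gm12463 is annotated as a processed pseudogene on chromosome 4 (44752277 to 44753125, minus strand) and matched the Aurkc transcript at 99.176% of 849 aligned positions. There were 7 differences in all, and the longest run without a difference was 704 bases. The stretch below is coding sequence of Aurkc, at transcript positions 1127 to 1246, beside positions 703 to 822 of the pseudogene, from GENCODE M21 transcripts. Capitals mark the 3 bases that differ in these 120 bases.
Aurkc: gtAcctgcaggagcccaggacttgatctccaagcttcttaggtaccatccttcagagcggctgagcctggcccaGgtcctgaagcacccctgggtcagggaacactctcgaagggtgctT
Gm12463: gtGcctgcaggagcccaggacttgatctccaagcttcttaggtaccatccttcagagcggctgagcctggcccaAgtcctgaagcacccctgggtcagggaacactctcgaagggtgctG
A read from the long identical run could have come from either locus, so counts of both are uncertain. No other gene of the 9 had a transcript elsewhere with at least 95% identity over at least 300 bases.

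The second concerns the cytoplasmic polyadenylation element, a U-rich motif near the 3′ end that CPEB1 binds in maturing oocytes. TTTTAT or TTTTAAT was searched on the transcript strand in the last 150 bases of the 3′ UTR of the longest complete coding transcript of each gene. It was found in Aurka, Aurkb, Aurkc and Plk4, and not in the window of Plk1, Tpx2, Incenp, Birc5 or Cdca8. For Tpx2, 2 of the 4 complete coding transcripts did hold it, and for Plk4 it was in 3 of 4. Of 18737 protein-coding genes with a 3′ UTR of at least that length, 23.3% held a match, beside 3 of the 8 genes of this set with such a 3′ UTR, since that of Aurkc is 146 bases long. The polyadenylation signal AATAAA or ATTAAA was in the last 50 bases for 75.8% of those 18737 genes. It was not found there in the transcripts used for Aurka and Incenp. All of these are matches of letters in a short window, and they are given as a description. The match nearest the 3′ end of each gene is shown in capitals within 30 bases, with GRCm38 coordinates.
Aurka, chr2:172356237-172356266, minus strand: ttaaaggctattTTTTATgttggagttctg
Aurkb, chr11:69051616-69051645, plus strand: tgaagaacaacaTTTTATaataaagtctta
Aurkc, chr7:7003036-7003065, plus strand: gcttgttttctcTTTTATgaagtgatgtta
Plk4, chr3:40816836-40816865, plus strand: tctgcaaatacaTTTTATaaaataaacaca
From its start to the transcript end the motif lay 59 bases away in Aurka, 37 in Aurkb, 44 in Aurkc and 36 in Plk4. Plk4 held 3 copies in the window, the others starting 88 and 76 bases from the end.

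Levels between genes were compared on the authors' FPKM scale, fragments per kilobase of gene length, scaled to library depth. Incenp, the scaffold of the chromosomal passenger complex, stood at 238.3 ± 13.3 FPKM in GFP High, 250.4 ± 8.74 in the GFP Low pools and 222.6 ± 21.3 in RFP (mean ± SD, n = 3, as for the other levels given here). Birc5 followed at 214.7 ± 33.9, 181.9 ± 11 and 171.5 ± 8.43 FPKM in the same order of groups. Aurka came next, at 116 ± 17.8, 109.4 ± 11.1 and 104.5 ± 7.61 FPKM. These mRNAs ranked 141, 197 and 390 among 18483 protein-coding genes by mean FPKM in RFP, where 8886 genes reached 1 FPKM.

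Tpx2 stood at 82.8 ± 3.29 FPKM in GFP High, 85.2 ± 5.37 in the GFP Low pools and 85 ± 1.01 in RFP. Plk1, which drives spindle assembly and the removal of meiotic inhibitors, lay beside it at 77.3 ± 7.44, 83.9 ± 3.86 and 82.7 ± 0.911 FPKM. Cdca8 was at 69.1 ± 3.03, 69.9 ± 3.18 and 67.2 ± 7.55 FPKM. Plk4, known as the kinase that starts centriole duplication, was at 44.2 ± 1.91, 48.3 ± 3.51 and 47.5 ± 2.53 FPKM in these eggs without centrioles. Aurkc stood at 13.8 ± 4.09, 12.8 ± 0.39 and 13.2 ± 0.485 FPKM, and Aurkb at 5.63 ± 2.03, 7.15 ± 0.265 and 6.32 ± 0.436. In RFP their ranks were 3224 and 4920, against 502 for Tpx2, 520 for Plk1, 683 for Cdca8 and 1040 for Plk4.

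**Figure D1:**
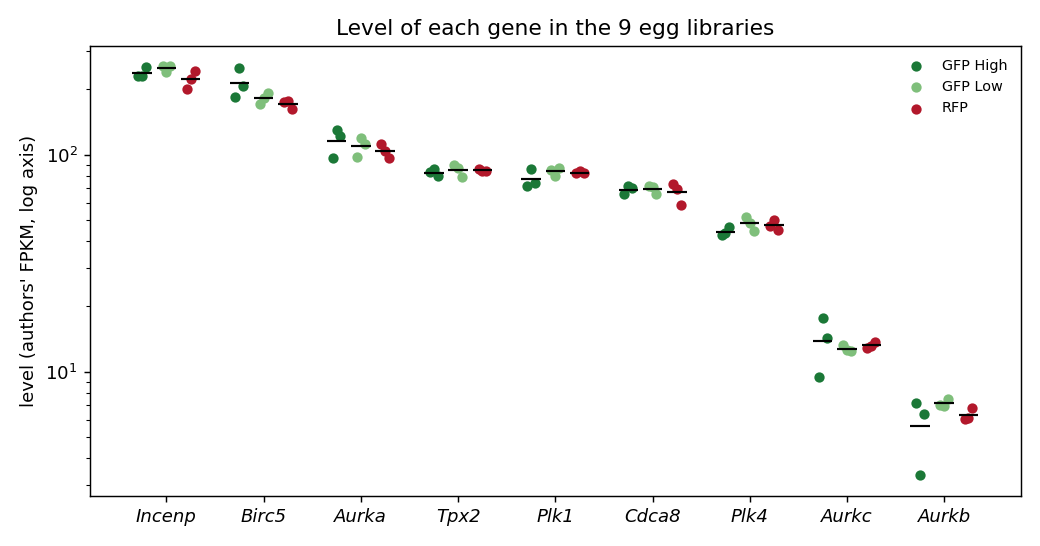
FPKM of the 9 genes on a log axis in each of the 9 libraries, coloured by group, with the mean of 3 libraries as a bar. Incenp and Birc5 are at the top, and Aurkc and Aurkb lie apart from the other 7 genes at the bottom in all 3 groups.

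Neighbours in this order were mostly separated by more than their spread over libraries. The ranges of Incenp and Birc5 overlapped in GFP High, and those of Tpx2 and Plk1 overlapped in GFP High and GFP Low. No other adjacent ranges overlapped, and in RFP none did. The order also depended on which length was used. The authors' length of Cdca8 is 5177 bases, while its longest coding transcript in GENCODE M21 is 1626 bases. Scaled by the length of that transcript in place of the authors' length, Cdca8 reached 221 ± 13.7 against 68.7 ± 4.52 FPKM (SD over 9 libraries), and moved from position 6 to position 2, ahead of Birc5 and Aurka. Plk4, with 6855 against 3479 bases, went from 46.6 ± 3.03 to 92.9 ± 6.4. Incenp stayed at position 1, at 237.1 and 238.1, and Aurkc and Aurkb stayed at positions 8 and 9. The counting strand is not given in the sources used here, and Cdca8 overlaps the gene 9930104L06Rik on the opposite strand, which received 39 to 117 reads per library.

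**Figure D2:**
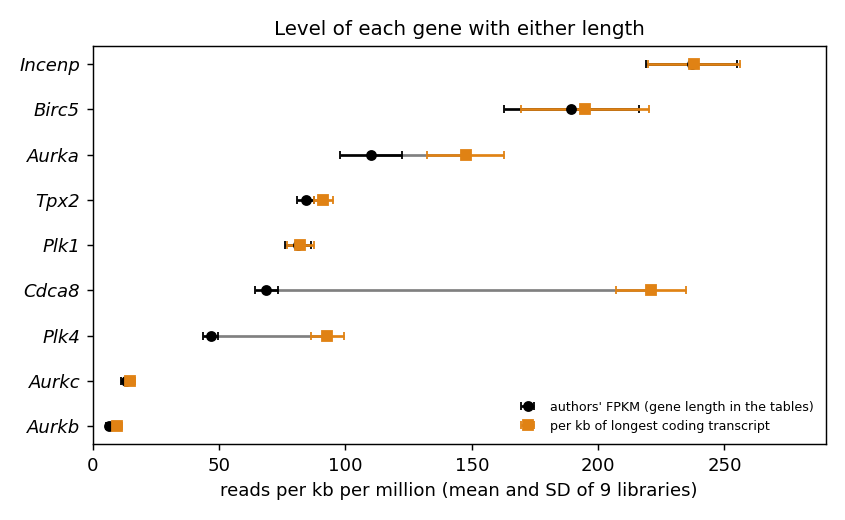
Mean and SD over the 9 libraries of each gene's level, with the authors' gene length (FPKM, circles) or the length of the longest coding transcript (squares), in depth-scaled reads per kilobase. The symbols lie far apart for Cdca8 (68.7 and 221) and Plk4 (46.6 and 92.9) and almost together for Incenp, Birc5 and Plk1.

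Ratios between partners were taken within each library. Tpx2 over Aurka, activator to kinase, was 0.725 ± 0.118 in GFP High, 0.786 ± 0.118 in the GFP Low pools and 0.816 ± 0.0523 in RFP on the FPKM scale (mean ± SD, n = 3). Incenp exceeded the sum of Aurkb and Aurkc, the kinases it scaffolds, by 12.4 ± 1.46, 12.6 ± 0.272 and 11.4 ± 0.608 fold. Plk1 over Plk4 was 1.75 ± 0.192, 1.75 ± 0.183 and 1.74 ± 0.0747 with the authors' lengths. With the lengths of the longest coding transcripts it turned to 0.889 ± 0.0972, 0.886 ± 0.0927 and 0.885 ± 0.0379, so which of the 2 kinases had more mRNA per length depended on the length used. Aurkc over Aurkb was 1.88, 1.8 and 1.67 in the GFP Low libraries and 2.12, 2.16 and 2.02 in the RFP libraries. In GFP High the ratio was 1.32, 5.28 and 2.24, so its libraries ranged wider than both other groups together. With the coding transcript lengths these 3 values became 0.95, 3.8 and 1.61, while all GFP Low and RFP values stayed above 1. Tpx2 over Aurka stayed below 1 in every library and Incenp stayed at least 8.68 times the sum of Aurkb and Aurkc with those lengths, a choice of length applied to the ratios after seeing the data. Differences of these ratios between groups were not tested.

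The question put to each gene was whether its mRNA differed between eggs of different reporter class. Every one of the 9 genes passed the filter on low counts in all 3 comparisons. By edgeR's quasi-likelihood test, 0 of 9 passed an adjusted p of 0.05 in GFP High versus RFP, where 0.0135% of all 14829 genes tested passed. In GFP Low versus RFP it was 0 of 9, beside 0.0197% of 15199, and in GFP High versus GFP Low 0 of 9, beside 0% of 14785. DESeq2 and limma-voom also called 0 of the 9 in each comparison. At an unadjusted p under 0.05, edgeR gave 1 of 9 in GFP High versus RFP (4.09% of all tested), 0 in GFP Low versus RFP (2.62%) and 0 in GFP High versus GFP Low (3.77%). The CPM ranges of the groups did not overlap for 1 of 9 genes in GFP High versus RFP (12.1% of all tested), 1 of 9 in GFP Low versus RFP (7.72%) and 0 of 9 in GFP High versus GFP Low (11.7%). The comparisons share libraries in pairs, so they are not independent of each other.

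Among the catalytic kinases, Aurka was measured at 243.1, 328.9 and 308.3 CPM in GFP High, at 248.1, 307.1 and 286.7 in the GFP Low pools and at 289.8, 267.2 and 251.5 in RFP. All 3 ranges overlapped. Its log2 difference was 0.14 ± 0.12 (SE) in GFP High versus RFP, 0.06 ± 0.09 in GFP Low versus RFP and 0.07 ± 0.12 in GFP High versus GFP Low.

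Aurkb was the least abundant gene per length, and within GFP High it was the most variable, with a coefficient of variation of 36.2%. In the GFP Low pools that was 3.87% and in RFP 7.33%, less than for Aurka (10.7%) and Cdca8 (11%), the most variable genes there. Genes at a similar level to Aurkb had a median of 23.7% in GFP High, 12.3% in the GFP Low pools and 12.5% in RFP. The CPM values of Aurkb were 21.1, 9.77 and 18.9 in GFP High, 20.8, 20.9 and 22.3 in the GFP Low pools, and 18.1, 18.2 and 20.6 in RFP. The second GFP High library, with 241 reads, was less than every other library, whose counts were 405 or more. The GFP Low values all lay just above the RFP values, in a comparison where 3.5% of the genes tested were non-overlapping and higher. Its log2 difference there was 0.17 ± 0.14 (SE), with a 95% interval of -0.12 to 0.47. In GFP High the log2 difference was -0.18 ± 0.29 against RFP and -0.35 ± 0.28 against GFP Low, and without the second GFP High library these became 0.09 and -0.09.

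Aurkc read 14.4, 26.7 and 21.9 CPM in GFP High, 20.2, 19.5 and 19.3 in the GFP Low pools, and 19.9, 20.3 and 21.5 in RFP. The first GFP High library was the lowest of all 9 and the second the highest, while for Aurkb the first was the highest and the second the lowest of GFP High, and the GFP High range enclosed those of both other groups. The coefficient of variation of Aurkc in GFP High was 29.5%, beside a median of 22.9% for genes at a similar level. Its log2 difference was 0.05 ± 0.24 (SE) in GFP High versus RFP, -0.06 ± 0.13 in GFP Low versus RFP and 0.10 ± 0.24 in GFP High versus GFP Low. Without the second GFP High library it was -0.17 against RFP and -0.11 against GFP Low.

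Reads listed under Gm12463, the near-identical pseudogene shown above, were 39, 259 and 133 in GFP High, beside 396, 658 and 489 for Aurkc. They were 65, 60 and 106 in the GFP Low pools, beside 394, 508 and 534, and 105, 52 and 55 in RFP, beside 523, 462 and 578. Gm12463 thus held 8.97%, 28.2% and 21.4% of the summed reads in the GFP High libraries, 14.2%, 10.6% and 16.6% in the GFP Low pools and 16.7%, 10.1% and 8.69% in RFP. Its own log2 difference was 1.12 ± 0.66 (SE) in GFP High versus RFP and did not pass (edgeR adjusted p = 0.997). With the reads of Aurkc and its annotated pseudogenes summed, the log2 difference of Aurkc in GFP High versus RFP was 0.19 in place of 0.05, and 0.23 in place of 0.10 against GFP Low. Neither passed the test. The part of misassigned reads in these values was not tested.

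**Figure D3:**
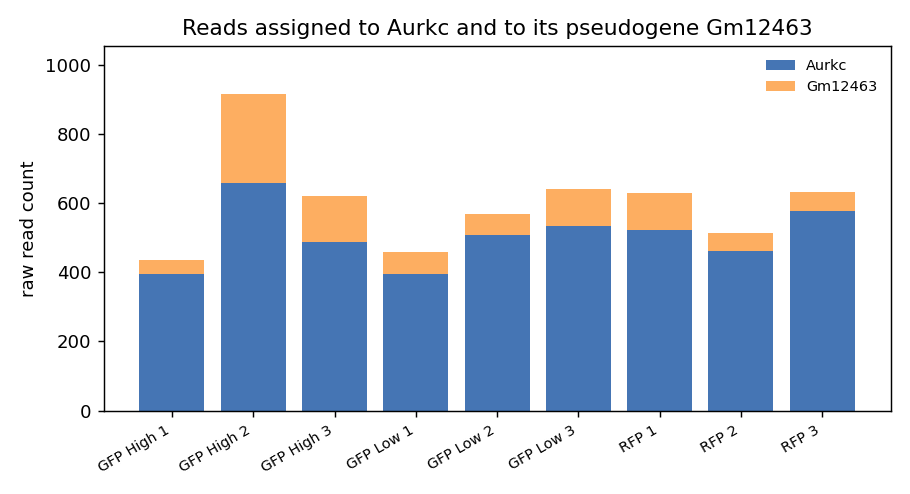
Raw read counts of Aurkc and, stacked on it, of the pseudogene Gm12463 in each library. The second GFP High library has the most reads of both (658 and 259), and the first has the fewest of Gm12463 (39).

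Plk1 was the steadiest gene in RFP, at 184.4, 186.5 and 184.9 CPM, a coefficient of variation of 0.605%. It was at 187.4, 178.3 and 194.9 CPM in the GFP Low pools and at 158.4, 187.9 and 162.9 in GFP High. In GFP High the first and the third library lay below every RFP and GFP Low value, while the second lay among them. The log2 difference was -0.11 ± 0.10 (SE) against RFP and -0.13 ± 0.10 against GFP Low. GFP Low differed from RFP by 0.02 ± 0.08.

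Plk4 was at 291.6, 297.9 and 317.9 CPM in GFP High, 356.2, 338.6 and 310.4 in the GFP Low pools and 329.6, 348.5 and 317.1 in RFP. The first and second GFP High libraries were the lowest of the 9, but the ranges overlapped. The log2 difference was -0.12 ± 0.09 (SE) in GFP High versus RFP, -0.14 ± 0.08 in GFP High versus GFP Low and 0.02 ± 0.08 in GFP Low versus RFP. Tpx2 stayed within 372.6 to 401.1 CPM in GFP High, 376.4 to 422.6 in the GFP Low pools and 399.2 to 410.9 in RFP, and its 3 log2 differences were between -0.05 and -0.00043.

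Of the passenger subunits, Birc5 showed the one separation between GFP High and RFP. It read 629.4, 852.9 and 706.4 CPM in GFP High, 584.5, 631.4 and 665.1 in the GFP Low pools and 609.9, 609 and 563.2 in RFP. Every GFP High value lay above every RFP value, in a comparison where 4.6% of genes tested did the same, and the GFP Low values overlapped both. The log2 difference from RFP was 0.31 ± 0.11 (SE), with a 95% interval of 0.06 to 0.56, or 1.24-fold with an interval of 1.04 to 1.47. The edgeR p was 0.0189 before adjustment, rank 190 of 14829, and 0.997 after Benjamini-Hochberg adjustment. Without the second GFP High library the log2 difference was 0.18. Against GFP Low it was 0.23 ± 0.11 (95% interval -0.00761 to 0.46), and between GFP Low and RFP 0.08 ± 0.07. In the authors' deposited table of GFP High versus RFP, the log2 fold change of Birc5 was 0.32 with p = 0.00905 and adjusted p = 0.467.

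Incenp was at 742.8, 737.4 and 817.7 CPM in GFP High, 827, 786.5 and 834.4 in the GFP Low pools and 660, 726 and 802.6 in RFP. The RFP libraries spread over a range that reached into both other groups. Its log2 difference was 0.17 ± 0.08 (SE, 95% interval -0.01 to 0.34) in GFP Low versus RFP, 0.09 ± 0.09 in GFP High versus RFP and -0.08 ± 0.07 in GFP High versus GFP Low. Cdca8 was at 339.5, 368.3 and 363.7 CPM in GFP High, 375.3, 375.7 and 347.8 in the GFP Low pools and 388.1, 363.5 and 312 in RFP. The lowest and highest Cdca8 values were both in RFP, and its log2 differences were between -0.03 and 0.05. Within GFP High, Birc5 and Cdca8 were highest in the second library and Incenp in the third. Whether the passenger subunits shared a pattern across libraries was not tested.

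**Figure D4:**
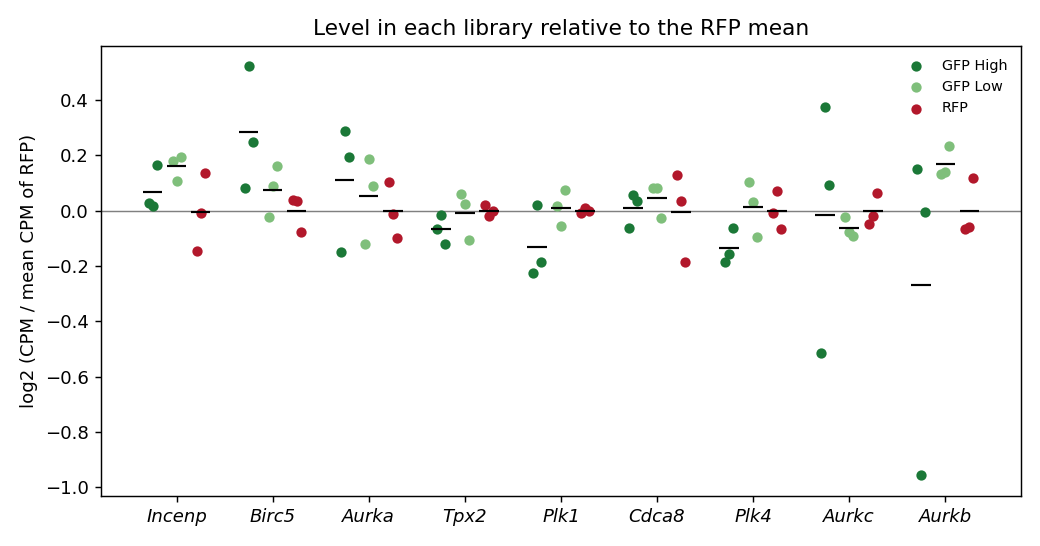
CPM of each gene in each library relative to the RFP mean, on a log2 scale, with group means as bars. Most points lie close to 0, and the points farthest from it are the second GFP High library for Aurkb (9.77 CPM), the first and second for Aurkc (14.4 and 26.7 CPM) and the second for Birc5 (852.9 CPM).

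The precision of these comparisons can be read from the intervals. All 27 intervals (95%) lay within 1 log2 unit of 0, the widest reach being -0.98 for Aurkb in GFP High versus GFP Low. The median SE over the 9 genes was 0.10, 0.08 and 0.10 in GFP High versus RFP, GFP Low versus RFP and GFP High versus GFP Low, beside 0.32, 0.22 and 0.33 over all genes tested. These medians are not matched for level. For Aurkb and Aurkc, the lowest of the 9 in CPM, the SE was 0.29 and 0.24 in GFP High versus RFP. The median log2 difference of the 9 was 0.03, 0.05 and -0.05, beside -0.01, -0.00409 and -0.00479 over all tested. Of the 9, 5, 7 and 3 were positive, beside 49.3%, 48.9% and 49.4% of all genes tested. A coefficient of variation across the 3 libraries had a median over the 9 genes of 9.38% in GFP High (3.69 to 36.2%), 4.44% in the GFP Low pools (2.54 to 10.7%) and 4.77% in RFP (0.605 to 11%). It exceeded the median of genes at a similar level for 4, 4 and 2 of the 9.

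**Figure D5:**
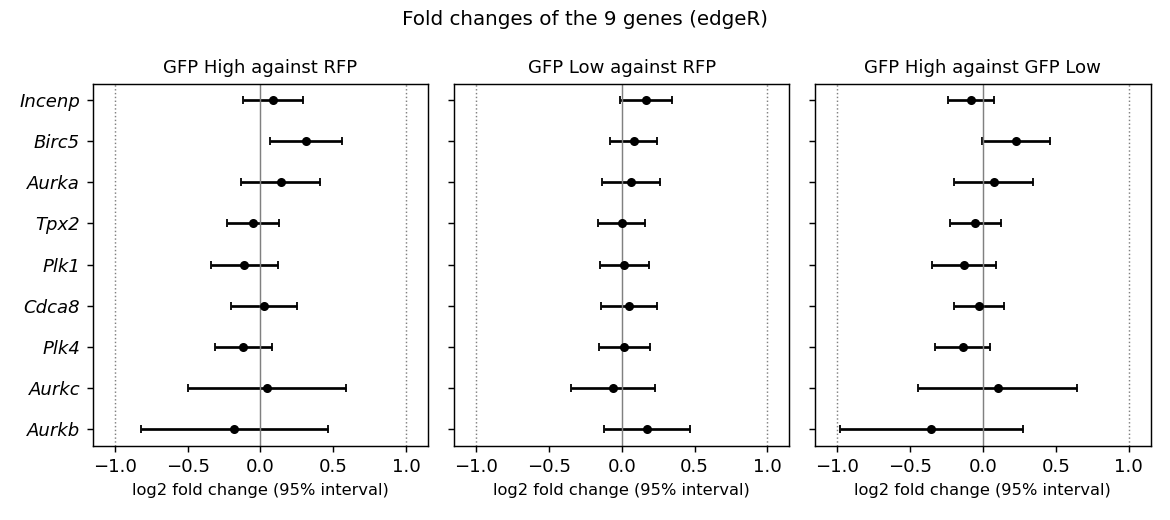
Log2 fold change of each gene by edgeR with its 95% interval in the 3 comparisons, the dotted lines marking 1 log2 unit on either side of 0. The interval of Birc5 in GFP High versus RFP (0.06 to 0.56) is the one that does not cross 0, before correction for multiple testing, and those of Aurkb and Aurkc are the widest.

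Genes that work with these kinases were followed through 4 lists. Of 14 Aurora A activators and spindle partners, 13 were tested and 0 passed in any comparison. The most abundant were Tacc3, a spindle protein phosphorylated by Aurora A, at 242.7 FPKM (mean of 9 libraries), Pcnt at 65 and Aurkaip1 at 47.3. The smallest p-values belonged to Hmmr in GFP High versus RFP (log2 difference -0.33), Tacc3 in GFP Low versus RFP (0.12) and Bora, a Plk1 and Aurora A cofactor, in GFP High versus GFP Low (-0.19). Of 16 listed genes that recruit the passenger complex, serve as its targets or build the central spindle, 15 were tested and 0 passed. Haspin, the kinase whose histone mark recruits the complex to centromeres, was at 122.5 FPKM, Kif23 at 105.6 and Prc1 at 72.6. Sgo2a had the smallest p in GFP High versus RFP (-0.38) and against GFP Low (-0.31), and Haspin in GFP Low versus RFP (0.12).

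Of 15 listed Polo kinases, Plk1 partners and regulators of Cdk1, all 15 were tested and 0 passed. Bub1b was at 282.2 FPKM, the oocyte kinase Wee2 at 111.2 and the anaphase-promoting complex inhibitor Fbxo5 at 58.7, while the other Polo-like kinases Plk2 and Plk3 were at 0.838 and 0.78. The anaphase-promoting complex activators had the smallest p-values of this list. Fzr1 differed by 0.34 on the log2 scale in GFP High versus RFP (edgeR adjusted p = 0.997). Cdc20 differed by 0.33 in GFP High versus GFP Low (edgeR adjusted p = 0.998) and by -0.21 in GFP Low versus RFP. All 11 genes of Plk4 and centriole assembly were tested and 0 passed. They were led by Cenpj at 47.8, Cep135 at 28.9 and Cep85 at 11.5 FPKM. Their smallest p-values were those of Btrc in GFP High versus RFP (-0.18), Cep152 in GFP Low versus RFP (0.28) and Ccp110 in GFP High versus GFP Low (-0.25). The medians of the 4 lists in GFP High versus RFP were -0.05, -0.05, 0.07 and -0.04 in the order given, beside -0.01 over all genes tested.

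The genes whose profile over the 9 libraries was most like that of each kinase or partner were ranked by the root mean square difference of centred log2 CPM among genes of similar level. The value was smallest for Plk4, at 0.0358 with Fchsd2 and 0.0478 with Rnf20, and for Tpx2, at 0.0447 with Rbm27 and 0.0448 with Nlrp9a. It was 0.0468 for Cdca8 with Gm839 (then Brdt at 0.048), 0.051 for Plk1 with Lrrc28 (then Nlrp2 at 0.0575) and 0.0558 for Incenp with Chaf1a (then Hnrnpu at 0.057). It was 0.0604 for Birc5 with Dlgap4 (then Txndc9 at 0.0609), 0.0693 for Aurka with Cdk20 (then Ica1 at 0.0773) and 0.0691 for Aurkc with F730016J06Rik (then Mgrn1 at 0.0872). For Aurkb it was 0.0927 with Dcaf10 and 0.103 with Ube3b. These are the smallest values among 448 genes of similar level for Incenp to 3383 for Aurkc. The median value over such genes ran from 0.117 for Tpx2 to 0.409 for Aurkb, so the values do not rank likeness between genes. Within the set, Plk4 and Tpx2 were each other's nearest, at 0.0751, and so were Aurka and Birc5, at 0.108. Tpx2 was also the nearest to Plk1, at 0.089, to Cdca8, at 0.0903, and to Incenp, at 0.133. The same measure taken against a flat line was 0.0577 for Tpx2, 0.0898 for Cdca8, 0.0927 for Plk4 and 0.0947 for Plk1. It was 0.105 for Incenp, 0.147 for Aurka and 0.169 for Birc5. Tpx2, Cdca8 and Incenp thus lay nearer to a flat line than to their nearest gene of the set. Small values can therefore mark genes that varied little. These likenesses are descriptions over 9 libraries that share depth and groups.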

How the data were processed

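Reads had been trimmed with fastp, aligned with HISAT2 2.0.5 to mm10 and counted with featureCounts 1.5.0-p3, and DESeq2 1.20.0 had been run, per the submitters' processing notes. The deposited tables give raw counts and FPKM per library, and normalised signal values that were not tested here. They also hold the authors' log2 fold changes with p-values, quoted only where named. The 3 tables, with 26570 to 29099 genes each, were joined by gene ID to 30153 genes. Each library is in 2 tables, and 178 genes absent from both tables of a library were set to 0 in it. Pairs of replicate libraries differed by 13.8 to 57.6 chi-square per degree of freedom, so none was a duplicate.

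Counts of each pair of groups were tested with edgeR 4.0.16 (R 4.3.3) after filterByExpr (minimum count 10) and TMM, by the quasi-likelihood test with Benjamini-Hochberg adjustment over all genes tested and a threshold of 0.05. SE is the log2 fold change divided by the square root of F. Profiles used log2 CPM with a prior count of 2. The procedure was tested on simulated data. Alternatives were DESeq2 1.42.0, limma-voom (limma 3.58.1), other scalings, no filter, all libraries in 1 fit, a replicate block and leaving out each library. Bias-adjusted deviances and summed Aurkc pseudogene reads were added after seeing the data. The 9 genes, the lists and the tests were chosen with earlier results of these data known. All 9 genes are named. From each list, the 3 genes with the highest FPKM and the one with the smallest p in each comparison are named, and for likeness the 2 nearest genes of similar mean CPM (within a factor of 2). Sequences and lengths came from GENCODE M21 (GRCm38), and near-identical transcripts were found with blastn 2.17.0. Depth was 19381677 to 27746256 counts per library, and each group had n = 3.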

Additional observations from a re-analysis of the deposited data

How the results depend on the processing

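None of the 9 genes passed the threshold under any alternative, in any comparison. The smallest adjusted p of any of them was 0.417, for Birc5 in GFP High against RFP without the third GFP High library, where the log2 fold change was 0.33. Of 381 alternative fold changes, 18 changed sign, in 11 of 27 pairs of gene and comparison. Aurkc in GFP High against RFP was -0.018 with limma-voom. Tpx2 in GFP Low against RFP was 0.000728 with DESeq2 and 0.00137 with DESeq2 size factors. Leaving out 1 library at a time gave these ranges of log2 fold change for the others whose sign changed. In GFP High against RFP they were -0.40 to 0.0862 for Aurkb, -0.17 to 0.25 for Aurkc and -0.0631 to 0.0866 for Cdca8. In GFP Low against RFP they were -0.0060 to 0.14 for Aurka, -0.0165 to 0.0501 for Plk1, -0.0331 to 0.0692 for Plk4, -0.0407 to 0.0454 for Tpx2 and -0.0331 to 0.12 for Cdca8. In GFP High against GFP Low they were -0.0201 to 0.19 for Aurka, -0.11 to 0.31 for Aurkc and -0.0694 to 0.000866 for Cdca8. The cause was not tested.

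Counts over all genes moved more. In GFP High against RFP, 2 genes passed with edgeR, 12 with DESeq2, 1 with limma-voom, 16 without the low-count filter and 4 with the replicate number as a block (replicate block), and 0 to 2 when 1 library was left out. In GFP Low against RFP, 3 passed, against 10 with DESeq2, 1 with limma-voom, 34 without the filter and 2 to 3 with 1 library left out. In GFP High against GFP Low, 0 passed, against 4 with DESeq2, 16 without the filter and 0 to 1 with 1 library left out. Same-numbered libraries correlated at -0.11 to 0.12 in their deviations from the group means. The sources do not state whether the numbers pair the libraries, and these correlations cannot decide it. The block changed no call of the 9 genes. Per kilobase of the longest coding transcript, the mean level over 9 libraries was 147.5 for Aurka, 9.73 for Aurkb, 92.9 for Plk4, 91.3 for Tpx2 and 221 for Cdca8, against 110, 6.36, 46.6, 84.3 and 68.7 FPKM. For these genes the alternative divides by a shorter length, which raises the value by construction. Its depth scaling also differs slightly: Plk1, with the same length in both, was at 82.1 against 81.3 FPKM.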

Other observations

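Aurkc had 3 further near-identical loci, all annotated as pseudogenes, with few or no reads. Gm6909 matched it at 96.057% and held 0 to 20 reads per library, Gm45598 matched at 95.243% with 0 to 1 read, and Gm7207 at 95.152% with 0 to 4 reads. Top2a, which encodes the topoisomerase that untangles sister chromatids, and the proliferation marker Mki67 were both well represented in these eggs, at 116 and 534.4 CPM on average over 9 libraries. The log2 difference of Top2a in GFP High against GFP Low was -0.34 ± 0.13 (SE), with an unadjusted edgeR p of 0.028 and an adjusted p of 0.998. Mki67 differed by -0.14 ± 0.09 in the same comparison. Of the 10 oocyte markers, 4 had an unadjusted edgeR p under 0.05 there, beside 3.77% of all genes tested, and none passed after adjustment. Their log2 differences were positive, at 0.38 ± 0.09 for Oosp1, 0.42 ± 0.12 for the kinase gene Mos, 0.21 ± 0.07 for the secreted factor gene Gdf9 and 0.18 ± 0.07 for Dppa3.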
